A study of Mus musculus with 26 samples.

Results

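The effect of losing Nkapl was compared between 2 stages of mouse spermatogenesis, pachytene spermatocytes and round spermatids, in 8 of the 26 RNA sequencing libraries of the series. The 4 groups, with 2 libraries each, are spermatocytes labelled wild type, spermatocytes labelled Nkapl knockout, wild-type round spermatids and Nkapl knockout round spermatids, all titled as day 21. The labels give no strain for these 8 samples, do not say which part of Nkapl was removed or how the cells were separated, and do not say whether the libraries came from separate animals, so the p-values measure the spread between these libraries, which may be technical. The other 18 samples are whole testes of day 21, of which 4 are used at the end. For each of 15805 genes the quantity tested was the difference of effects, which is the log2 difference between knockout and wild type in round spermatids minus the same difference in spermatocytes. A gene was called where edgeR's quasi-likelihood test gave an adjusted p under 0.05, and all genes called that way are the members described here. The difference of effects was higher in spermatids for 1469 genes (9.29% of those tested) and lower for 2627 genes (16.6%), and 11709 were not called.

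Germ cells pass through a long meiotic prophase as pachytene spermatocytes, in which homologous chromosomes are paired and recombined and the X and Y chromosomes are packed into a silenced body. After the meiotic divisions they become haploid round spermatids, which build the acrosome and the flagellum and make the transcripts for the proteins that later compact the sperm nucleus. Transcripts for later steps are often made early and stored, so the same gene can be active in both stages. NKAPL is a germ cell paralogue of the nuclear protein NKAP, and the comparison asks whether its loss touches the same transcripts before and after the meiotic divisions.

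The gene counts per library summed to between 18155299 and 19569272. Reads that the deposited files list under no gene took 18.8% to 20% of all counted reads in the libraries labelled wild type and 23.2% to 24.6% in those labelled knockout, and the part of this difference in the results was not tested. Libraries of 1 group differed by more than counting noise (chi-square per degree of freedom 1.40 to 4.85), so each was kept as a replicate. The summed level of 14 spermatocyte markers was 1818 and 1673 CPM (read counts scaled to a common library size) in spermatocytes labelled wild type and 2583 and 2551 CPM in those labelled knockout, and 416 and 441 CPM in wild-type and 557 and 573 CPM in knockout spermatids. The summed level of 16 round spermatid markers was 2417 and 2536 CPM against 1769 and 1777 CPM in spermatocytes, and 5771 and 5738 CPM against 4647 and 4609 CPM in spermatids. In the libraries labelled knockout the first sum was thus higher and the second lower in both stages, beside every gene list described here, and the part of such shifts in the results was not tested. These markers place the spermatocyte and the spermatid libraries on the sides their labels give, with spermatid transcripts present in the spermatocyte libraries too.

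Nkapl itself was looked at first (chromosome 13, 21467047 to 21468501, mouse build GRCm38). In round spermatids it measured 88.4 and 90.3 CPM in the wild-type libraries and 24.6 and 23.6 CPM in the knockout libraries, a log2 difference of -1.89 ± 0.07 (SE, adjusted p = 1.51e-24). In spermatocytes it measured 90.1 and 86.0 CPM in the libraries labelled wild type and 127 and 125 CPM in those labelled knockout, a log2 difference of 0.51 ± 0.05 (adjusted p = 2.39e-10). By the labels, the spermatocyte difference is thus opposite to the spermatid one. Nkapl reads also remained in knockout spermatids and in knockout testes (61.1 and 58.5 CPM, against 74.9 and 79.5 CPM in wild type). As the removed part of the gene is not given, the Nkapl level alone cannot decide whether the spermatocyte labels are right. Every spermatocyte difference and every difference of effects given here is drawn from spermatocyte libraries as they are labelled. Other measures, picked after their values were seen, had the same sign by label in both stages. Among them were Prm1 (-3.20 ± 0.06 in spermatocytes and -3.86 ± 0.06 in spermatids), Tnp2 (-2.56 ± 0.05 and -3.22 ± 0.05), Top3a (1.70 ± 0.06 and 0.77 ± 0.08) and the share of reads under no gene. Of the genes called for the difference of effects, 761 fell and 552 rose in both stages, and 350 and 96 had opposite called effects. Whether the labels are right was not tested. No library was moved to another group. The spermatid effect uses no spermatocyte library. The difference of effects for Nkapl was -2.40 ± 0.09 (adjusted p = 1.95e-22), among the 10 lowest of the genes that passed the rule for naming. The paralogue Nkap was low in every library (0.287 to 0.626 CPM) and was not called (-0.35 ± 0.69, adjusted p = 0.762). Sox30, a transcription factor of meiotic and haploid germ cells, measured 286 and 242 CPM in wild-type and 243 and 235 CPM in knockout spermatids, and 130.3 and 133 CPM and 146 and 151 CPM in spermatocytes labelled wild type and knockout. Its difference of effects was -0.32 ± 0.08 (adjusted p = 0.00417), and the call was lost without wild-type spermatid library 1 (-0.15) or knockout spermatid library 2 (-0.24).

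Among the 4096 genes called, 2949 also had a called effect in spermatids. The most frequent pattern was a rise in spermatocytes labelled knockout with no call in spermatids (843 genes, median spermatocyte difference 0.41 and median spermatid difference -0.03 on the log2 scale). A fall in both stages, of unequal size, was found for 761 genes (medians -0.63 in spermatocytes and -0.79 in spermatids). Spermatids alone fell for 658 genes (median -0.43) and rose for 532 genes (median 0.85), and both stages rose unequally for 552 genes. Opposite called effects were rarer: 350 genes fell in knockout spermatids and rose in spermatocytes labelled knockout, and 96 genes did the reverse. Spermatocytes alone fell for 257 genes, and 47 genes were called for the difference with neither stage called. Each stage on its own had more calls than the difference between them: 4588 genes rose (29.0%) and 4904 fell (31.0%) in spermatids, and 5298 rose (33.5%) and 4062 fell (25.7%) in spermatocytes by their labels.

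Most differences of effects were modest. The median size was 0.58 for genes with a higher and 0.45 for genes with a lower difference, and 350 and 264 of them reached a log2 size of at least 1. Of the calls, 35.9% were higher, but with DESeq2's size factors in the same test 50.5% of 3903 calls were higher, while the median over all genes moved from -0.03 to 0.04. Leaving out wild-type spermatid library 1 or 2, or knockout spermatid library 1 or 2, gave 1568, 1675, 1529 or 1476 lower calls. DESeq2 called 941 higher and 1253 lower, and leaving out knockout spermatocyte library 1 gave 980 higher.

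**Figure D1:**
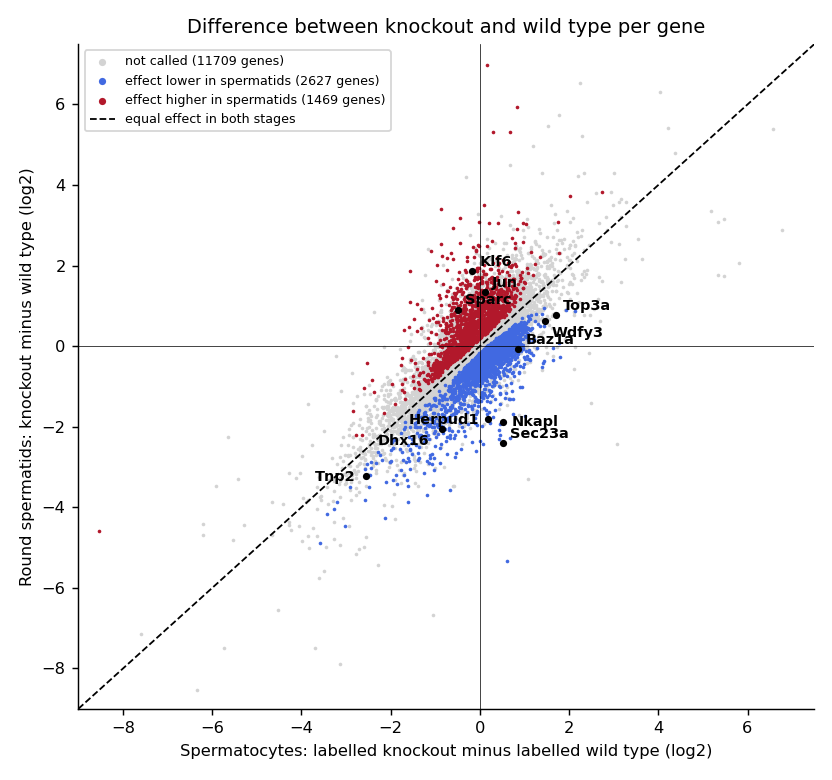
Each point is 1 of 15805 genes, with the log2 difference between libraries labelled knockout and wild type in spermatocytes on the x axis and the same difference in round spermatids on the y axis. The 2627 genes with a lower difference of effects (blue) lie under the dashed line of equal effects and the 1469 with a higher one (red) above it, and Nkapl and Sec23a fall in spermatids with no fall in spermatocytes.

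Several of the genes with the lowest difference of effects fell in spermatids and rose in spermatocytes labelled knockout. Sec23a (chromosome 12, 58958384 to 59012017), which encodes a coat protein of the vesicles that leave the endoplasmic reticulum, measured 50.5 and 55.2 CPM in wild-type and 9.28 and 10.7 CPM in knockout spermatids. In spermatocytes it measured 64.3 and 56.7 CPM in libraries labelled wild type and 88.8 and 83.9 CPM in those labelled knockout. The 2 knockout spermatid libraries lie far below the other 6, and the spermatocyte groups do not overlap, in the opposite direction. Its difference of effects was -2.92 ± 0.11 (adjusted p = 3.47e-21), the lowest of the named genes with more than 3 counts in every group. Mgat5 (chromosome 1, 127204919 to 127488334), an enzyme that branches N-linked sugar chains, had the same shape, with 15.8 and 13.6 CPM in wild-type and 2.75 and 3.21 CPM in knockout spermatids against 14.7 and 11.2 CPM and 17.0 and 18.0 CPM in spermatocytes. Its spermatid difference was -2.30 ± 0.16 and its spermatocyte difference 0.44 ± 0.11. Nsmf, a gene known from neuronal signalling, fell in spermatids (-1.92 ± 0.14) and rose in spermatocytes (0.44 ± 0.10) (difference of effects -2.36 ± 0.17, adjusted p = 5.08e-13).

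Herpud1 (chromosome 8, 94386429 to 94395371) encodes a membrane protein of the endoplasmic reticulum that takes part in the removal of misfolded proteins. It measured 88.1 and 83.4 CPM in wild-type and 24.9 and 24.5 CPM in knockout spermatids, and 52.2 and 53.2 CPM and 60.5 and 59.7 CPM in spermatocytes labelled wild type and knockout. In spermatids the knockout lost more than the whole gain seen from spermatocyte to spermatid in the libraries labelled wild type, and the difference of effects was -1.99 ± 0.09 (adjusted p = 4.21e-19). Other genes fell from the start and fell further in spermatids. Esyt3, which tethers the endoplasmic reticulum to the plasma membrane, measured 9.38 and 9.56 CPM and 4.33 and 4.81 CPM in spermatocytes labelled wild type and knockout, against 11.7 and 11.6 CPM and 0.860 and 1.26 CPM in spermatids (difference of effects -2.40 ± 0.25). Nqo2, a quinone reductase, Fam214b and Mfsd9 likewise fell in both stages, with spermatid differences of -3.88 ± 0.22, -4.25 ± 0.17 and -3.69 ± 0.27 and spermatocyte differences of -1.61 ± 0.22, -2.13 ± 0.17 and -1.20 ± 0.27. The collagen gene Col27a1 fell in spermatids (-2.55 ± 0.26), and in spermatocytes its difference of -0.43 ± 0.21 was not called (adjusted p = 0.0714). Ceacam20, an adhesion molecule gene, was at 0.584 and 0.636 CPM in wild-type and 0.115 and 0.115 CPM in knockout spermatids, and its call (difference of effects -2.35 ± 0.66) was lost without either knockout spermatid library (-2.30 and -2.29).

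Genes with the smallest p among those that fell in spermatids alone include genes of general cell functions. Rbm28 (chromosome 6, 29123573 to 29164724), a nucleolar RNA-binding protein, measured 58.7 and 60.6 CPM in wild-type and 16.6 and 15.1 CPM in knockout spermatids, while its spermatocyte libraries ranged from 37.1 to 40.3 CPM. The chromatin-bound exchange factor Rcc1, which charges the Ran GTPase that drives nuclear transport, measured 149 and 145 CPM and 66.4 and 62.9 CPM in spermatids. Its 4 spermatocyte libraries ranged from 100.2 to 106 CPM. Both genes thus had a level in knockout spermatids below that of all other libraries, with differences of effects of -1.81 ± 0.10 (adjusted p = 6.5e-16) and -1.24 ± 0.08 (adjusted p = 1.24e-14). Gxylt1, a sugar transferase that acts on Notch receptors, fell from 16.5 and 16.5 CPM to 4.35 and 4.02 CPM in spermatids (difference of effects -2.02 ± 0.16). Among genes that fell in both stages, the smallest p belonged to Aamp, the spliceosomal helicase Dhx16 and the microtubule plus-end protein Clasp1. Dhx16 measured 138 and 142 CPM and 78.0 and 78.2 CPM in spermatocytes labelled wild type and knockout and 134 and 145 CPM and 33.0 and 34.6 CPM in spermatids, with differences of -0.84 ± 0.06 in the first stage and -2.05 ± 0.06 in the second.

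In the largest pattern, transcripts were higher in spermatocytes labelled knockout and level in spermatids. Eif4a2 (chromosome 16, 23107468 to 23114132), a helicase of translation initiation, measured 146 and 130.4 CPM in spermatocytes labelled wild type and 245 and 252 CPM in those labelled knockout, against 51.1 and 49.6 CPM and 46.5 and 44.5 CPM in wild-type and knockout spermatids. The spermatocyte groups lie far apart, and the spermatid difference of -0.15 ± 0.07 was not called (adjusted p = 0.0621). Baz1a, a subunit of the ACF chromatin remodeller, measured 266 and 223 CPM and 451 and 438 CPM in spermatocytes and 74.4 and 72.0 CPM and 69.8 and 69.2 CPM in spermatids (difference of effects -0.94 ± 0.09, adjusted p = 4.54e-09). The nuclear receptor coactivator gene Ncoa5 followed the same course (-0.72 ± 0.08). In Wdfy3, Top3a and Sp3 the rise in spermatocytes was followed by a smaller called rise in spermatids. Wdfy3, a scaffold of selective autophagy, went from 89.3 and 78.7 CPM to 233 and 228 CPM in spermatocytes and from 78.2 and 73.6 CPM to 116 and 120.2 CPM in spermatids, which are rises of 1.46 and 0.64. The transcription factor gene Sp3 rose by 1.21 and by 0.19.

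**Figure D2:**
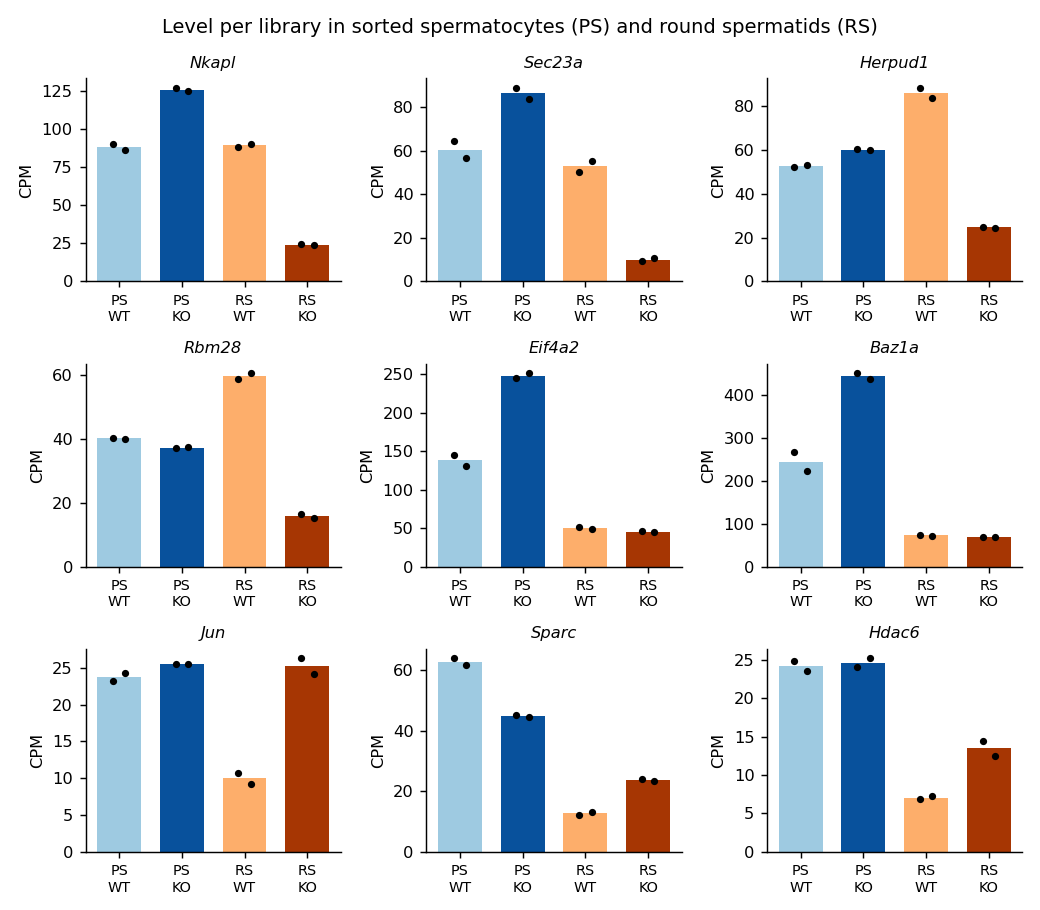
Level in CPM (y axis) of 9 genes in each library, with bars at the mean of the 2 libraries of a group and points at each library, for spermatocytes (PS) and round spermatids (RS) labelled wild type (WT) and knockout (KO). Nkapl, Sec23a, Herpud1 and Rbm28 are lowest in knockout spermatids, Eif4a2 and Baz1a are highest in spermatocytes labelled knockout, and Jun, Sparc and Hdac6 are higher in knockout than in wild-type spermatids.

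Factors of RNA polymerase II pausing and elongation, which govern whether the enzyme moves from the promoter into the gene, were lower in 24 of 57 cases and higher in 0. Their median difference of effects was -0.20, against -0.03 over all genes, of which 16.6% were lower and 9.29% higher. In spermatocytes labelled knockout 31 of the 57 rose and 8 fell, and in knockout spermatids 16 rose and 18 fell. Over all genes 33.5% rose and 25.7% fell in spermatocytes, and 29.0% rose and 31.0% fell in spermatids. The spermatid counts of this list lie near those shares. The elongation factor Tcea2 measured 379 and 393 CPM and 317 and 309 CPM in spermatocytes labelled wild type and knockout, and 353 and 380.4 CPM and 193 and 190.3 CPM in spermatids (difference of effects -0.63 ± 0.07, adjusted p = 5.65e-09). Eaf1, a partner of the ELL elongation factors, rose in spermatocytes (0.61 ± 0.08) and fell in spermatids (-0.58 ± 0.10), and Ints3 of the Integrator complex did the same (0.32 ± 0.07 and -0.63 ± 0.09). Cdk9, the kinase that releases paused polymerase, chosen after its values were seen, rose in spermatocytes from 44.6 and 46.3 CPM to 59.4 and 59.6 CPM, while its spermatid difference of -0.20 ± 0.10 was not called. With DESeq2's size factors 19 of the list were lower and 1 higher, DESeq2 gave 12 lower, and leaving out wild-type spermatid library 1 or 2 or knockout spermatid library 1 or 2 gave 13, 14, 14 and 11.

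Genes that resolve RNA-DNA hybrids and collisions of transcription with replication were lower in 11 of 36 cases and higher in 4, with a median of -0.19, against 16.6% lower and 9.29% higher over all genes. Top3a, the topoisomerase with the smallest p of the list, went from 47.9 and 50.2 CPM to 159 and 161 CPM in spermatocytes and from 23.7 and 27.9 CPM to 45.3 and 42.9 CPM in spermatids, so the gene rose in both stages and by more in the first (1.70 ± 0.06 and 0.77 ± 0.08). Fanci of the Fanconi anaemia repair pathway rose in spermatocytes (0.21 ± 0.08) and fell in spermatids (-0.62 ± 0.10). The recombination gene Brca2 rose in spermatocytes from 73.7 and 64.8 CPM to 107 and 103 CPM, and its spermatid libraries ranged from 56.7 to 61.6 CPM. The 4 genes on the higher side were Top2b, Brca1, Thoc2 and Thoc1, named after their values were seen. Leaving out labelled wild-type spermatocyte library 1 gave 17 lower and 2 higher, and leaving out labelled knockout spermatocyte library 1 or knockout spermatid library 2 gave 1 and 2 higher.

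Of 83 cytosolic ribosomal protein genes, 67 rose and 1 fell in spermatocytes, and 19 rose and 13 fell in spermatids, which left 41 with a lower difference of effects (median -0.22). Over all genes 33.5% rose and 25.7% fell in spermatocytes, 29.0% rose and 31.0% fell in spermatids, and 16.6% had a lower difference. Rps23 measured 154 and 163 CPM and 203 and 197 CPM in spermatocytes and 186 and 162 CPM and 148 and 153 CPM in spermatids, a difference of effects of -0.55 ± 0.08 (adjusted p = 2.75e-06). Rps20 fell in spermatids alone (-0.43 ± 0.06) and Rps15 rose in spermatocytes alone (0.33 ± 0.05). The 2 ribosomal protein genes on the higher side, named after their values were seen, were Rps4x and Rpl10, both on chromosome X. Rps4x measured 1.69 and 2.14 CPM in wild-type and 4.18 and 5.74 CPM in knockout spermatids, with spermatocyte libraries between 2.66 and 3.14 CPM. The ribosomal count depended on scaling: it was 21 lower with DESeq2's size factors, 16 with DESeq2, 13, 25, 21 and 15 without wild-type spermatid library 1 and 2 and knockout spermatid library 1 and 2, and 55 without wild-type spermatocyte library 2. Ribosomal protein genes have many processed copies in the genome, so reads shared with these copies make single members uncertain.

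Of 98 respiratory chain genes, 54 rose and 5 fell in spermatocytes labelled knockout, 22 rose and 16 fell in spermatids, and 24 had a lower difference of effects (median -0.16). In spermatids 29.0% of all genes rose and 31.0% fell, and both respiratory counts lie under those shares. In spermatocytes 33.5% of all genes rose and 25.7% fell. The share with a lower difference was 24.5% here and 29.7% among the proteasome genes listed next, against 16.6% over all genes. The ATP synthase gene Atp5g1 fell in spermatids from 30.2 and 31.6 CPM to 20.9 and 19.2 CPM, while its spermatocyte libraries ranged from 20.9 to 23.9 CPM. The testis form of a cytochrome oxidase subunit, Cox6b2, also fell in spermatids alone (-0.23 ± 0.05, adjusted p = 0.00044). The 1 gene of the chain with a higher difference was Sdhd, named after its values were seen. Of 37 genes listed as proteasome subunits, 30 rose and 1 fell in spermatocytes labelled knockout, 14 rose and 7 fell in spermatids, and the difference of effects was lower for 11 and higher for 1, Psmd7, named after its values were seen. The 11 include Psmc3ip, a meiotic recombination factor taken in by its name. Psmc6 rose in spermatocytes and fell in spermatids (0.42 ± 0.07 and -0.33 ± 0.08), and Psma3 did so as well (0.29 ± 0.06 and -0.25 ± 0.07). With DESeq2's size factors 16 respiratory chain and 8 proteasome genes were lower, and with DESeq2 9 and 6. The respiratory count was 12 to 16 without any 1 of the 4 spermatid libraries and 38 without labelled wild-type spermatocyte library 2, and the proteasome count was 5 without wild-type or knockout spermatid library 1 and 7 without knockout spermatid library 2.

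**Figure D3:**
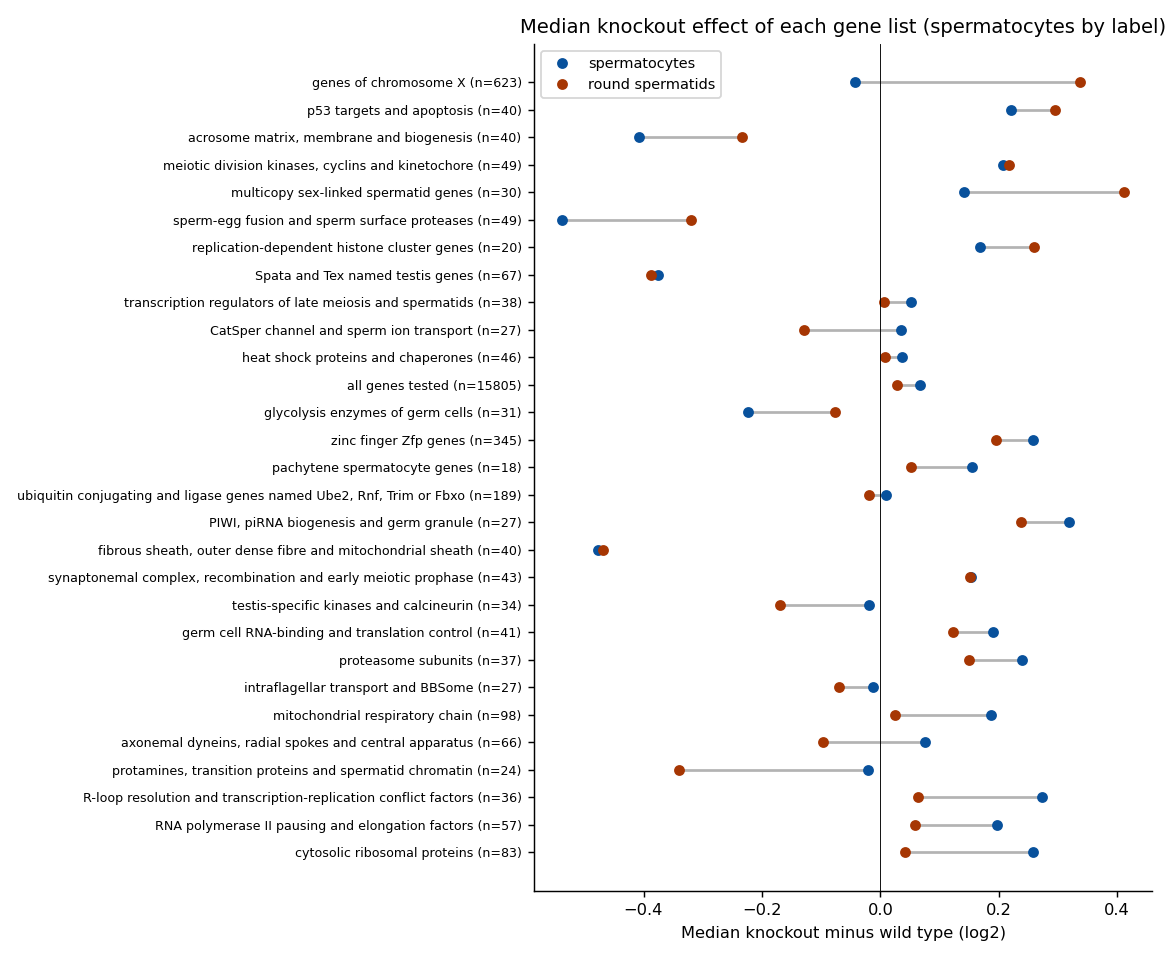
Median log2 difference between knockout and wild type (x axis) for each gene list (y axis, with the number of genes tested), in spermatocytes by their labels (blue) and in round spermatids (brown), ordered by the median difference of effects. The ribosomal protein, pausing and elongation, and R-loop lists have the lowest median differences of effects (-0.22, -0.20 and -0.19), and the genes of chromosome X the highest (0.32).

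The sperm flagellum is built on an axoneme moved by dynein motors, with intraflagellar transport carrying its parts. Of 66 axoneme genes 24 had a lower difference of effects and 1, the assembly factor Zmynd10, a higher one, with a median of -0.17. Over all genes 16.6% were lower and 9.29% higher. The long dynein heavy chain gene Dnah2 measured 221 and 217 CPM in wild-type and 116 and 114 CPM in knockout spermatids, whereas spermatocytes measured 428 and 356 CPM and 460.4 and 449.6 CPM by their labels (difference of effects -1.15 ± 0.09, adjusted p = 2.45e-10). Dnah17, a dynein heavy chain of the sperm outer arm, fell in spermatids from 756 and 745 CPM to 469 and 466 CPM, and its spermatocyte difference of 0.03 ± 0.05 was not called. Drc3, of the complex that regulates the dyneins, fell in both stages and by more in spermatids (-1.34 ± 0.06 and -2.24 ± 0.07). In intraflagellar transport and the BBSome, a cargo adaptor of cilia, 11 of 27 genes were lower and 0 higher, among them Ift172 (-0.39 ± 0.06), Bbs2 (-0.46 ± 0.09) and Bbs7 (-0.39 ± 0.08). With DESeq2's size factors 19 axoneme genes were lower and 8 higher, and 8 transport genes were lower and 2 higher. Without wild-type spermatid library 1, 15 axoneme genes were lower. The transport count was 7 without labelled knockout spermatocyte library 1 and 4 to 6 without any 1 of the spermatid libraries.

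In the list of fibrous sheath, outer dense fibre and mitochondrial sheath genes, 34 of 40 fell in knockout spermatids and 31 fell in spermatocytes labelled knockout, with medians of -0.47 and -0.48. Over all genes 31.0% fell in spermatids and 25.7% in spermatocytes. The difference of effects was lower for 11 and higher for 4, but with DESeq2's size factors for 7 and 8, and leaving out 1 library gave 5 to 14 lower and 1 to 8 higher, so no direction is given for this list. Sept12, a septin of the ring that bounds the midpiece, rose in spermatocytes and fell in spermatids (0.30 ± 0.05 and -0.19 ± 0.05). Tekt4, a tektin filament protein, fell in spermatocytes from 265 and 292 CPM to 194 and 191 CPM and measured 541 and 559.5 CPM and 518 and 506 CPM in wild-type and knockout spermatids, a spermatid difference that was not called (adjusted p = 0.0583). Of the CatSper calcium channel and other sperm ion transport genes 6 of 27 were lower and 4 higher. These shares of 22.2% and 14.8% stand beside 16.6% and 9.29% over all genes. Catsperg2 fell in spermatids from 290.3 and 274 CPM to 132 and 133 CPM with a much smaller fall in spermatocytes (-0.15 ± 0.05), and Catsperd rose in spermatocytes and fell in spermatids (0.45 ± 0.05 and -0.17 ± 0.05). Catsperg1 and Catsperg2 are close paralogues, so shared reads make each uncertain.

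Transcripts of transition protein Tnp2 and protamine Prm1, which replace histones in the sperm nucleus, fell in both stages and further in spermatids. Tnp2 (chromosome 16, 10787935 to 10788655), a transition protein, measured 408 and 429 CPM in spermatocytes labelled wild type and 73.3 and 68.9 CPM in those labelled knockout, against 1564 and 1511 CPM in wild-type and 169.8 and 159.6 CPM in knockout spermatids. The groups are apart in both stages, with spermatocyte and spermatid differences of -2.56 ± 0.05 and -3.22 ± 0.05 and a difference of effects of -0.66 ± 0.07 (adjusted p = 3.86e-09). Protamine gene Prm1 fell in spermatocytes (-3.20 ± 0.06) and in spermatids (-3.86 ± 0.06) (difference of effects -0.67 ± 0.08). Brdt, a testis bromodomain protein that reads acetylated histones, rose in spermatocytes (0.16 ± 0.05) and fell in spermatids (-0.52 ± 0.05), from 320.4 and 313 CPM to 216 and 226 CPM. Over the list of 24 such genes 8 were lower and 2 higher (median -0.18), against 16.6% lower and 9.29% higher over all genes. Leaving out wild-type or knockout spermatid library 2 gave 5 lower. In bulk libraries, fewer cells of a type and less RNA per cell cannot be told apart. The summed level of 14 late spermatid markers, which include the protamines, was 3459 and 3651 CPM in spermatocytes labelled wild type, 1501 and 1487 CPM in those labelled knockout, 12050.1 and 11549 CPM in wild-type spermatids and 4217 and 4181 CPM in knockout spermatids. That summed level was thus lower in the knockout in both stages, and all 14 fell in spermatids and 13 in spermatocytes. Over all genes 31.0% fell in spermatids and 25.7% in spermatocytes. The part of late spermatids in the results was not tested.

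Acrosome genes went the other way. In knockout spermatids 28 of 40 fell and 5 rose, in spermatocytes labelled knockout 28 fell and 6 rose, and the fall was smaller in spermatids (medians -0.23 and -0.41). The difference of effects was higher for 13 and lower for 3 (median 0.13). Over all genes 31.0% fell in spermatids, 25.7% fell in spermatocytes, and the difference was higher for 9.29% and lower for 16.6%. Lyzl4, a lysozyme-like protein of the acrosome, measured 49.2 and 55.5 CPM and 33.6 and 36.3 CPM in spermatocytes labelled wild type and knockout, and 128 and 129 CPM and 117 and 115 CPM in spermatids (difference of effects 0.43 ± 0.09, adjusted p = 0.000354). The 3 on the lower side were Pcsk4, Spata4 and Actl9, the last named after its values were seen. Pcsk4, a protease that processes acrosomal proteins, fell from 256 and 264 CPM to 131 and 124 CPM in spermatids (-1.03 ± 0.05), with a smaller fall in spermatocytes (-0.44 ± 0.05). Spata4 (-0.27 ± 0.06) lost its call without knockout spermatid library 2 (-0.19). Genes of sperm-egg fusion and the sperm surface had 11 higher and 5 lower of 49 (median 0.08). Zan, the zonadhesin that binds the egg coat, fell in spermatocytes (-0.94 ± 0.07) and by less in spermatids (-0.51 ± 0.06), while Prss58, a serine protease gene, had the reverse order with 12.4 and 12.2 CPM and 6.88 and 6.41 CPM in spermatocytes and 34.3 and 32.8 CPM and 4.64 and 4.42 CPM in spermatids. Leaving out labelled knockout spermatocyte library 1 or 2 left 5 and 7 higher acrosome genes and 6 and 4 higher fusion genes. DESeq2's size factors gave 18 higher and 2 lower in the fusion list, and leaving out any 1 spermatid library gave 2 lower. Round spermatid markers, which overlap with these lists, had 8 higher and 0 lower of 16.

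Of 49 genes of the meiotic divisions 13 were higher and 8 lower (median 0.12), against 9.29% higher and 16.6% lower over all genes. The phosphatase gene Cdc25a, which activates cyclin-dependent kinases, measured 128 and 123 CPM and 105 and 103 CPM in spermatocytes labelled wild type and knockout, and 218 and 219.7 CPM and 267 and 271 CPM in spermatids, a fall followed by a rise (difference of effects 0.57 ± 0.07, adjusted p = 1.46e-07). Plk1, the polo-like kinase, fell in spermatocytes from 179.9 and 195 CPM to 133 and 138 CPM, and its spermatid libraries ranged from 254 to 279 CPM. Further members of the higher side, named after their values were seen, were Ccnb1, Ccnb2, Cdk1, Aurka, Aurkb and Cdc20. Of the lower members, the kinesin gene Kif2c fell in spermatids from 221 and 214 CPM to 104 and 99.7 CPM (-1.09 ± 0.05) and by less in spermatocytes (-0.15 ± 0.05), and the kinesin gene Kif11 rose in spermatocytes and fell in spermatids (0.40 ± 0.06 and -0.36 ± 0.07). DESeq2 gave 12 higher and 4 lower of this list, and leaving out labelled knockout spermatocyte library 1 or 2, wild-type spermatid library 1 or 2, or knockout spermatid library 1 or 2 gave 5, 6, 5, 4, 4 and 5 lower.

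Transcription regulators of late meiosis and spermatids had 7 higher and 8 lower of 38, with a median of 0.02 and with 5 lower without wild-type spermatid library 1 or knockout spermatid library 2. Over all genes 9.29% were higher and 16.6% lower. Rfx1, which binds promoters of cilia genes, measured 117 and 114 CPM and 66.5 and 68.8 CPM in spermatocytes and 294 and 296 CPM and 235 and 231 CPM in spermatids, a larger fall in the first stage (difference of effects 0.43 ± 0.07). The haploid repressor gene Zmynd15 had the same order (-0.70 ± 0.05 and -0.26 ± 0.05), and Kctd19, a partner of the meiotic regulator ZFP541, had the opposite order (-0.14 ± 0.04 and -0.57 ± 0.04). Germ cell RNA-binding and translation control genes were lower in 16 of 41 cases and higher in 3. The post-transcriptional regulator Samd4b fell in spermatids from 281 and 263 CPM to 154 and 146 CPM, and the splicing factor Rbm5 rose in spermatocytes alone (0.55 ± 0.06). Testis kinases and calcineurin were lower in 13 of 34 cases and higher in 4, but lower in 6 and higher in 5 with DESeq2's size factors. PIWI and piRNA genes, which silence transposons, were lower in 8 of 27 cases and higher in 2, but lower in 3 with DESeq2's size factors. Argonaute gene Ago4 rose in spermatocytes and fell in spermatids (0.32 ± 0.08 and -0.54 ± 0.12). Translation control genes were lower in 8 cases without wild-type spermatid library 1. The kinase list had 4 to 6 lower without any 1 spermatid library, 5 and 8 without labelled knockout spermatocyte library 1 and 2, and the piRNA list 2 to 4, 5 and 3.

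The other lists had few or mixed calls, and over all genes 9.29% were higher and 16.6% lower. The lower shares of glycolysis (16.1%), Zfp (17.1%) and ubiquitin genes (19.6%) lay near that of all genes. Higher and lower were counted for early meiotic prophase (2 higher and 9 lower of 43), pachytene genes (3 and 5 of 18), glycolysis (3 and 5 of 31), heat shock proteins (5 and 11 of 46), Spata and Tex genes (8 and 14 of 67), ubiquitin genes (14 and 37 of 189), Zfp genes (17 and 59 of 345), p53 targets and apoptosis genes (4 and 1 of 40), multicopy sex-linked genes (3 and 1 of 30) and histone cluster genes (1, Hist1h2bp, and 0 of 20). Without wild-type spermatid library 1 or 2 or knockout spermatid library 1 or 2, the lower Zfp genes numbered 34, 31, 32 and 34, and 24 with DESeq2, while without the first of these libraries 10 were higher. Ubiquitin genes had 7 higher without labelled knockout spermatocyte library 2 and 23, 22 and 21 lower without wild-type spermatid library 1 or 2 or knockout spermatid library 2. Pachytene genes had 1 and 2 lower without wild-type spermatid library 1 or knockout spermatid library 2. Leaving out 1 library gave 3 to 14 lower heat shock genes, 1 to 11 higher and 4 to 14 lower Spata and Tex genes, 1 to 5 higher and 4 to 8 lower glycolysis genes, 2 to 4 higher p53 targets, 1 to 4 higher multicopy genes and 0 to 3 higher early prophase genes. Single members are given for their own values. The cohesin gene Stag3 of the meiotic chromosome axis fell in spermatocytes and further in spermatids (-0.40 ± 0.05 and -0.78 ± 0.05). Gpi1, the glycolytic glucose-6-phosphate isomerase, measured 266 and 257 CPM in wild-type and 64.6 and 62.4 CPM in knockout spermatids and 104 and 104 CPM and 43.4 and 45.9 CPM in spermatocytes (difference of effects -0.82 ± 0.08). The constitutive chaperone gene Hspa8 rose in spermatids from 62.4 and 64.6 CPM to 87.7 and 87.4 CPM (0.46 ± 0.06), and the chaperone gene Hsph1 rose in spermatocytes and fell in spermatids (0.61 ± 0.06 and -0.18 ± 0.07). Pou5f2, a POU factor of pachytene cells, rose in both stages and by more in spermatids (0.69 ± 0.06 and 1.35 ± 0.13), from 3.85 and 4.57 CPM to 10.7 and 10.8 CPM. Ssxb1 and Ssxb2 are near-identical copies on chromosome X and are given only as a pair that was higher (0.60 ± 0.16 and 0.59 ± 0.18), and Ssxb2 lost its call with DESeq2 (0.64) and without labelled wild-type spermatocyte library 2 (0.51) or labelled knockout spermatocyte library 1 (0.49). Of the heat shock genes 8 were higher and 7 lower with DESeq2's size factors, and of the Spata and Tex genes 13 and 7, so neither list has a stable direction.

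Among the named genes with a higher difference of effects, several transcription and RNA regulators rose in knockout spermatids. Jun (chromosome 4, 95049036 to 95052222), a subunit of the AP-1 transcription factor, measured 10.7 and 9.25 CPM in wild-type and 26.3 and 24.2 CPM in knockout spermatids, and its spermatocyte libraries ranged from 23.2 to 25.6 CPM. The knockout spermatids were therefore at the spermatocyte level, and the difference of effects was 1.24 ± 0.13 (adjusted p = 2.35e-09). The antiproliferative gene Btg2 rose in spermatids from 5.49 and 4.92 CPM to 15.8 and 15.0 CPM (1.56 ± 0.12). Zfp36, which marks AU-rich transcripts for decay, rose from 8.29 and 7.11 CPM to 22.0 and 24.5 CPM (1.59 ± 0.11), and Klf6, a zinc finger factor, from 1.75 and 2.26 CPM to 6.93 and 7.63 CPM (1.86 ± 0.20). Cited2, a transcriptional coactivator gene, measured 0.759 and 1.10 CPM and 2.41 and 2.98 CPM, with spermatocytes between 3.75 and 6.02 CPM (difference of effects 1.87 ± 0.33).

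Several other named genes with a higher difference of effects are known from somatic cells. Sparc, a matrix protein gene, measured 64.0 and 61.7 CPM and 45.2 and 44.4 CPM in spermatocytes labelled wild type and knockout, and 12.3 and 13.0 CPM and 24.2 and 23.3 CPM in wild-type and knockout spermatids, so the fall in the first stage was followed by a rise in the second (difference of effects 1.40 ± 0.11, adjusted p = 3.43e-12). Clu, the secreted chaperone clusterin of Sertoli cells, fell in spermatocytes (-0.54 ± 0.05) and rose in spermatids (0.34 ± 0.09). Gja1, a gap junction protein gene of Sertoli cells, and Gata4, a transcription factor of somatic testis cells, rose in spermatids from 0.409 and 0.578 CPM to 1.15 and 1.43 CPM and from 0.759 and 0.520 CPM to 1.83 and 1.89 CPM (differences of effects 2.09 ± 0.41 and 1.97 ± 0.38). Psap, a lysosomal precursor protein gene, rose in spermatids from 19.9 and 20.8 CPM to 38.4 and 36.5 CPM (0.88 ± 0.08), and the macrophage gene Mpeg1 from 1.11 and 0.867 CPM to 3.55 and 2.98 CPM (1.72 ± 0.26). The bicarbonate exchanger gene Slc4a3 measured 0.525 and 0.116 CPM and 2.12 and 3.27 CPM in spermatids (difference of effects 2.84 ± 0.47), the T-box factor gene Tbx4 0.701 and 0.463 CPM and 4.13 and 4.65 CPM (difference of effects 2.06 ± 0.40), and the mitochondrial carrier gene Slc25a18 2.28 and 2.66 CPM and 7.45 and 7.23 CPM (difference of effects 1.97 ± 0.27). Rasd1 had a difference of effects of 1.78 ± 0.40, and Sec31b (1.85 ± 0.57) lost its call with DESeq2 (1.93), without wild-type spermatid library 1 (1.90) or 2 (1.89) and without knockout spermatid library 2 (1.45).

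Markers of somatic testis cells did not all move one way. Over all genes the difference of effects was higher for 9.29% and lower for 16.6%. In spermatids 29.0% of all genes rose and 31.0% fell, and in spermatocytes 33.5% rose and 25.7% fell. The summed level of 15 Sertoli markers was 361 and 389 CPM in spermatocytes labelled wild type, 256 and 259 CPM in those labelled knockout, 61.6 and 58.5 CPM in wild-type spermatids and 70.3 and 71.8 CPM in knockout spermatids. Of the 15 the difference of effects was higher for 6 and lower for 0 (median 0.63). The 10 Leydig markers summed to 33.9 and 34.9 CPM in wild-type and 57.7 and 55.0 CPM in knockout spermatids, against 85.1 and 83.1 CPM in spermatocytes labelled wild type and 115 CPM in both labelled knockout, with 6 of 9 tested higher and 0 lower (median 0.87). The 10 macrophage markers summed to 23.1 and 23.6 CPM in wild-type and 54.8 and 53.1 CPM in knockout spermatids, where 9 rose and 0 fell. Their sum lay between 10.6 and 13.2 CPM in spermatocytes, where by the labels 4 rose and 2 fell. The median knockout effects were 1.17 in spermatids and 0.94 in spermatocytes. The difference of effects was higher for 1 of 10, Mrc1, a share near the 9.29% of all genes. The 9 peritubular myoid markers summed to 307 and 300.5 CPM in wild-type and 141 and 138 CPM in knockout spermatids, with 1 rising and 3 falling of 7 tested. Most of these sums came from Actg2, with 269 and 262 CPM in wild-type and 107 and 108 CPM in knockout spermatids. Acta2 (4.1 and 4.2 against 4.8 and 4.0 CPM) and Tagln (3.3 and 4.1 against 4.4 and 4.0 CPM) showed no such fall. The 7 endothelial markers summed to 23.6 and 25.0 CPM and to 20.6 and 19.3 CPM, with 0 of 6 tested called for the difference of effects. Blood markers were at 0 counts in every library for 6 of 8. The parts of these cell types in the higher calls were not tested.

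**Figure D4:**
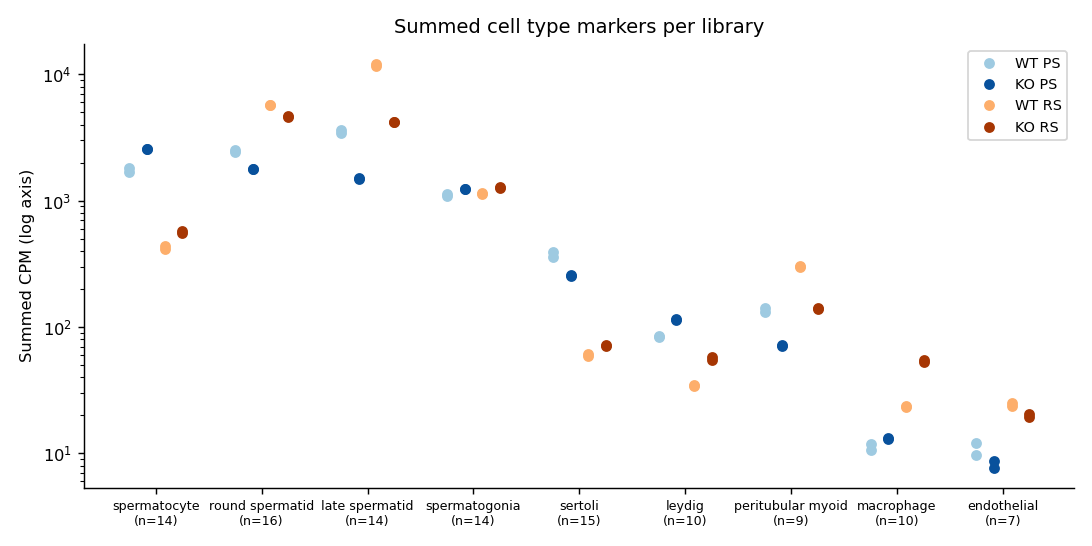
Summed level of each marker list in CPM on a log axis (y axis), by list on the x axis with the number of genes, 1 point per library. The late spermatid sum is lower in the knockout in both stages, whereas the macrophage sum is higher in knockout than in wild-type spermatids (54.8 and 53.1 against 23.1 and 23.6 CPM).

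On the X chromosome the higher side outnumbered the lower. Of 623 tested, 106 had a higher difference of effects (17.0%) and 9 a lower one (1.44%), with a median of 0.32. On the autosomes 1359 of 15126 were higher (8.98%) and 2612 lower (17.3%), with a median of -0.04. No single autosome had more than 11.3% higher or less than 12.3% lower. In knockout spermatids 255 X genes rose and 84 fell (median 0.34), and in spermatocytes labelled knockout 74 rose and 121 fell (median -0.04). Over all genes 29.0% rose and 31.0% fell in spermatids, and 33.5% rose and 25.7% fell in spermatocytes. Both spermatocyte counts on X lie under those shares of the 623 genes tested. A rise in spermatids with no call in spermatocytes was the course of 69 of the 115 called X genes, against 532 of the 4096 genes called on all chromosomes. The share of all gene counts that fell on the X chromosome was 0.479% and 0.465% in spermatocytes labelled wild type, 0.405% in both labelled knockout, 0.800% and 0.818% in wild-type spermatids and 0.893% and 0.899% in knockout spermatids. The higher calls were spread along the chromosome, with 18 of 114, 22 of 112, 27 of 161, 15 of 100 and 24 of 136 genes in 5 consecutive segments. Of 25 genes tested on the Y chromosome 2 were higher and 0 lower.

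**Figure D5:**
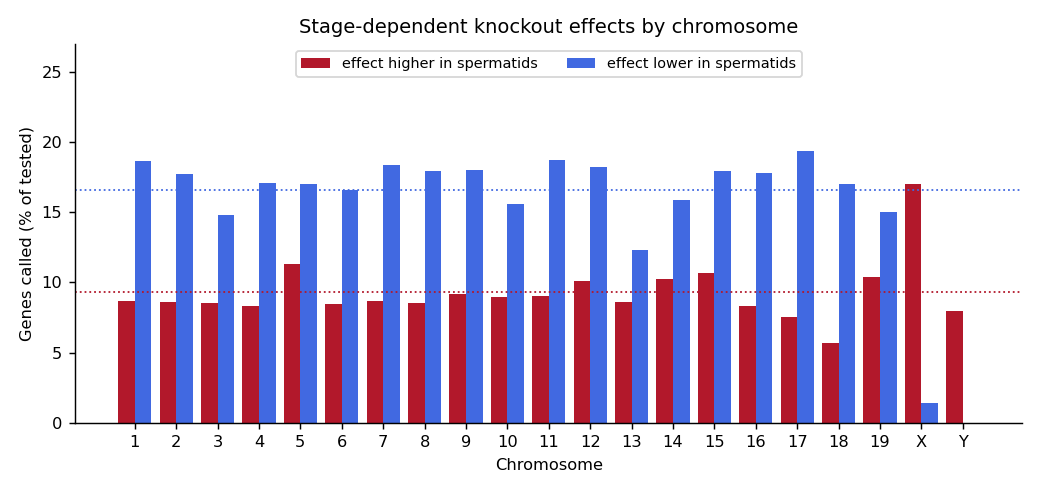
Share of tested genes (y axis, percent) with a higher (red) and a lower (blue) difference of effects on each chromosome (x axis), with dotted lines at 9.29% and 16.6% for all genes. The X chromosome stands out with 17.0% higher and 1.44% lower.

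Hdac6 (chromosome X, 7930116 to 7948047), the cytoplasmic deacetylase that acts on tubulin, measured 6.83 and 7.29 CPM in wild-type and 14.5 and 12.5 CPM in knockout spermatids. Its 4 spermatocyte libraries ranged from 23.5 to 25.2 CPM, and the difference of effects was 0.91 ± 0.15 (adjusted p = 1.04e-05). Zmym3, a zinc finger gene, rose from 42.7 and 45.6 CPM to 76.5 and 79.2 CPM in spermatids and from 30.9 and 26.9 CPM to 33.3 and 33.1 CPM in spermatocytes, the first rise being the larger (0.62 ± 0.10, adjusted p = 1.51e-05). Mum1l1 fell in spermatocytes (-0.29 ± 0.09) and rose in spermatids (0.52 ± 0.09). Genes with general roles were among the 106. The chromatin protein gene Rbbp7, the RNA helicase gene Ddx3x and the transcriptional coregulator gene Hcfc1, chosen after their values were seen, measured 7.88 and 7.81 CPM, 6.83 and 6.24 CPM and 29.8 and 28.2 CPM in wild-type spermatids. In knockout spermatids they measured 15.4 and 14.4 CPM, 10.5 and 10.8 CPM and 40.3 and 39.8 CPM. In each of them the knockout libraries lay above the wild-type libraries, with differences of effects of 0.71 ± 0.15, 0.90 ± 0.18 and 0.53 ± 0.11. On the lower side Zfp185, also chosen after its values were seen, fell in both stages (-0.69 ± 0.16 and -1.86 ± 0.13). With DESeq2's size factors 130 X genes were higher and 5 lower, with DESeq2 56 and 2. Leaving out labelled knockout spermatocyte library 1 gave 71 higher and 3 lower, and leaving out wild-type spermatid library 1 or 2 or knockout spermatid library 1 or 2 gave 4, 3, 4 and 3 lower.

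Promoters of the genes called higher or lower were described by the motifs they hold, and shared regulation was not tested. RefSeq promoters of build GRCm38.p6, from 250 bases before to 50 bases after each start site, were listed for 12595 of the genes tested (15803 promoters). The CRE core TGACG, searched on both strands and known as a core of the sites bound by the CREM and CREB family, was in 28.1% of all of them, in 34.8% of promoters of genes with a lower difference of effects and in 25.0% of those with a higher one. On the X chromosome it was in 24.7% of promoters of all tested genes and in 35.7% of those of the higher genes. Median GC content was 59.3% over all, 61.7% for the lower and 58.7% for the higher genes, so the sets also differ in base composition. AACGG, a core of A-MYB sites, was in 22.1% of all promoters, 25.1% of the lower and 18.9% of the higher set. GTTGCC, a core of RFX sites, was in 13.6%, 15.0% and 14.6%, and ACAAT of SOX factors in 23.3%, 21.4% and 23.9%. The TATA box TATAAA, on the forward strand, was in 4.86%, 3.75% and 4.38%. A match is a description of letters and not a measured site.

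The 100 bases before the start site are shown, 5′ to 3′ on the gene's strand, for the 3 lower and 3 higher X-linked genes with the smallest p among those with a single listed promoter and a CRE core in this window, with the motifs searched in capitals. Rbm28, Knstrn and Pom121 are lower genes, and Ddx3x, Xk and Rbbp7 are higher genes of the X chromosome. The windows are chr6:29164725-29164824 (minus strand) for Rbm28, chr2:118813903-118814002 (plus) for Knstrn, chr5:135394547-135394646 (minus) for Pom121, chrX:13280922-13281021 (plus) for Ddx3x, chrX:9272684-9272783 (plus) for Xk and chrX:162760272-162760371 (plus) for Rbbp7. Capitals mark TGACG or its reverse complement CGTCA in all 6, ATTGT (the reverse complement of the SOX motif) in Knstrn and CCGTT (that of the A-MYB motif) in Rbbp7.
Rbm28: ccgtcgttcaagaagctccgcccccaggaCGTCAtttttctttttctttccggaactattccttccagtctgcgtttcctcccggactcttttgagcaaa
Knstrn: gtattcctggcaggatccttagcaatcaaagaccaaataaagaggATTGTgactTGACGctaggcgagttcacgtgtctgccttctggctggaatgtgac
Pom121: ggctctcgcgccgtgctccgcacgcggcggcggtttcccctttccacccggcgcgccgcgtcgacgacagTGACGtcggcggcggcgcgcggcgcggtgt
Ddx3x: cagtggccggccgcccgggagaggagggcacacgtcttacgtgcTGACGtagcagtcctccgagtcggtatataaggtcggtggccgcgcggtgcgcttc
Xk: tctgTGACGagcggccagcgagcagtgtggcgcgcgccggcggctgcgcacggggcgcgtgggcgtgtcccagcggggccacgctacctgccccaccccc
Rbbp7: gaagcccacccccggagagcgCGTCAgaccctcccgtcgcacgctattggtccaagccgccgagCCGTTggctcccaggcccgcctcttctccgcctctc

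These 6 genes differ in their course although all hold the motif. Knstrn, a spindle protein gene, fell in spermatids from 90.2 and 89.5 CPM to 32.0 and 32.9 CPM and slightly in spermatocytes (-0.27 ± 0.07). Pom121, a nucleoporin gene, rose in spermatocytes from 185 and 176 CPM to 283 and 276 CPM and measured 197 and 189 CPM and 169 and 177 CPM in spermatids. Xk, which encodes a membrane protein linked to the Kell protein, fell in spermatocytes from 9.52 and 10.4 CPM to 7.25 and 6.82 CPM and rose in spermatids from 22.4 and 23.2 CPM to 27.1 and 25.5 CPM. Knstrn, Pom121 and Xk are not among the genes of the naming rule and are described because their windows are printed.

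Some genes had 3 or fewer counts in a whole group, and for these the counts are given in place of a fold. Plxnb3, a semaphorin receptor gene on chromosome X, had 0 counts in both wild-type spermatid libraries and 29 in the knockout libraries together, against 9 and 9 in spermatocytes labelled wild type and knockout. Rhbg, an ammonium transporter gene, had 9 counts in wild-type and 0 in knockout spermatids, against 22 and 30 in spermatocytes. Both kept their call in the alternatives that gave an adjusted p, and DESeq2 gave none for either. Atp2b3, Serpinb1a and Aqp3 had 2, 2 and 17 counts in wild-type and 8, 19 and 3 in knockout spermatids. Their calls were each lost in at least 1 alternative, among them the fit without knockout spermatid library 2.

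A readout that shares no library with the sorted cells is whole testis of the Nkapl set at postnatal day 21 (C57BL/6), with 2 wild-type and 2 knockout libraries. These testes held little of the late spermatid transcripts of the sorted cells, although both are titled day 21: Prm1 measured 0.136 and 0.0885 CPM and Tnp2 0.681 and 0.133 CPM in wild-type testis, against 1115 and 1055 CPM and 1564 and 1511 CPM in wild-type sorted spermatids. A missing call in testis therefore says little about such spermatids. Of 16724 genes tested there, 2166 rose (13.0%) and 3880 fell (23.2%) in the knockout. DESeq2 called 1090 rises, and without knockout testis library 2 there were 1207. Over the 14815 genes tested in both data sets 13.8% rose and 26.0% fell. Genes with a higher difference of effects rose in testis in 18.4% and fell in 41.8% of 1454 cases, and genes with a lower one rose in 13.7% and fell in 23.4% of 2599 cases. Genes that fell in both sorted stages fell in testis in 57.0% of cases, those that fell in spermatids alone in 36.1%, and those that rose in spermatocytes labelled knockout alone in 11.6%. Opposite called effects with a spermatid fall went with a testis fall in 16.9% of 350 cases.

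Nkapl measured 74.9 and 79.5 CPM in wild-type and 61.1 and 58.5 CPM in knockout testes (-0.38 ± 0.06, adjusted p = 8.34e-05). Sec23a measured 126 and 137 CPM in wild-type and 143 and 145 CPM in knockout testes, a log2 difference of 0.12 ± 0.05 that was not called (adjusted p = 0.0886). Herpud1 (0.13 ± 0.06) and Rbm28 (0.14 ± 0.07) were not called there either. Top3a rose from 80.4 and 85.4 CPM to 133 and 129.5 CPM (0.65 ± 0.05, adjusted p = 9.04e-08). Of the 105 higher X genes tested in testis, 36 rose (34.3%) and 19 fell (18.1%), against 23.3% and 19.5% of all 550 X genes tested in both. Hdac6, Mum1l1 and Zmym3 rose in testis by 0.34 ± 0.05, 0.35 ± 0.05 and 0.19 ± 0.05 (adjusted p = 4.55e-05, 2.02e-05 and 0.00747). The X-linked pair Ssxb1 and Ssxb2, higher in the sorted cells, fell in testis: they measured 4.18 and 2.65 CPM and 3.27 and 1.99 CPM in wild type, and in knockout Ssxb2 was at 0 in both libraries and Ssxb1 at 0 and 0.0384 CPM. Zan and Lyzl4, picked here after their values were seen, had far larger falls in testis than in the sorted cells. Zan measured 65.0 and 67.6 CPM in wild-type and 1.27 and 0.999 CPM in knockout testes (-5.89 ± 0.12). Lyzl4 measured 8.27 and 5.40 CPM in wild-type and 0 and 0.154 CPM in knockout testes. In whole testis a change in the share of a cell type and a change within cells cannot be told apart.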

How the data were processed

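Per the labels' protocols, total RNA of the pachytene spermatocytes and round spermatids was isolated with TRIzol and sequenced from a stranded library kit. The authors deposited 1 table of raw read counts per gene for each sample. HISAT2 2.1.0, HTSeq, DESeq2 and the mouse build mm10 are named in the submitters' processing notes, while neither the gene models nor the strand option of the counting is stated there, so overlapping genes and antisense partners are uncertain. The summary lines of the counter (18.8% to 24.6% of reads) entered neither library sizes nor tests.

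The 8 sorted libraries were fitted together with edgeR 4.0.16 in R 4.3.3 (TMM scaling, filterByExpr by group, robust quasi-likelihood F test, two-sided). P-values were adjusted by Benjamini-Hochberg over all 15805 genes tested, from 24682 symbols, with a threshold of 0.05. Errors given with log2 differences are standard errors, and levels are CPM on TMM-scaled library sizes. Coordinates, chromosomes and promoters came from RefSeq tables of build GRCm38.p6, which matched 15775 symbols (99.8%).

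The genes named are Nkapl, Nkap and Sox30, then the 10 largest differences in each direction with a mean log2 CPM of at least 1, more than 3 counts in every group and all 4 library pairs of 1 stage on the same side of all 4 of the other. Added to these are up to 4 genes per direction with 3 or fewer counts in some group, and the 3 called genes with the smallest p of each pattern, gene list and chromosome X. Provisional symbols were passed over, and some genes that meet the rule are not reported here. Members and lists were chosen with earlier results of these data known.

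Of 6 whole testis tables of the Nkapl set, 5 were distinct and 1 of these had a column heading of the other group. The other 4 were used, with 20120729 to 25514132 gene counts each. The alternatives were DESeq2 1.42.0, limma-voom (limma 3.58.1), DESeq2's size factors in edgeR, no filter on low counts, a replicate block, counts thinned to the smallest library, the Rn45s gene left out, a fit without robust estimation and leaving out each library. The scripts were tested on simulated data.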

Additional observations from a re-analysis of the deposited data

Results flagged for a closer look

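Effects that differed between the stages by the test of the difference itself are listed here, with spermatocyte libraries as labelled. The difference of effects was higher for 1469 genes and lower for 2627, and it was higher for 106 genes of chromosome X. Nkapl differed by -2.40, with a level in spermatocytes labelled knockout above that in those labelled wild type. Sec23a (-2.92) and Herpud1 (-1.99) fell in spermatids and rose in spermatocytes. Sparc (1.40), Clu (0.88) and Cdc25a (0.57) rose in spermatids and fell in spermatocytes.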

How the results depend on the processing

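With DESeq2 941 genes were higher and 1253 lower, and on chromosome X 56 and 2. With DESeq2's size factors in edgeR 1972 were higher and 1931 lower, with 5 lower on X. Without the filter the counts were 1856 and 2218. Leaving out 1 library gave 980 to 1502 higher and 1476 to 2986 lower genes, and on X 71 to 106 and 3 to 12. The lower counts were 1568 and 1675 without wild-type spermatid library 1 and 2, and 1529 and 1476 without knockout spermatid library 1 and 2. Within spermatids 3568 to 4876 rose and 4478 to 5187 fell, and within spermatocytes 4309 to 5125 and 3379 to 4580. In testis DESeq2 gave 1090 rises, and leaving out 1 library gave 1207 to 2355 rises and 3163 to 3853 falls. The cause of these changes was not tested. The median difference of effects over all genes, -0.03 in the main fit, was 0.02 to 0.03 without any 1 spermatid library. It was -0.04 to -0.03 without any 1 spermatocyte library and 0.04 with DESeq2's size factors. A left-out library also leaves fewer samples, where the lone library of a group is assumed to vary like the other groups.

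Over 129 named genes and 16 settings, 2005 of 2056 checks kept direction and side of the threshold, 49 lost the call and 2 changed sign. DESeq2 gave no adjusted p for 8 of these genes, which have no check there. Both sign changes were in Nkap, which was not called: 0.10 without wild-type spermatid library 2 and 0.0039 without knockout spermatid library 2, in a range of -0.67 to 0.10 over the left-out libraries. Same-numbered libraries did not deviate together (r from -0.018 to 0.043). Because counting noise of single genes lowers r, this cannot decide whether same-numbered libraries of the 2 stages came from 1 animal. A replicate block gave 1442 higher and 2621 lower genes, with 4007 of its 4063 calls shared with the fit without it, and 2120 rises and 3837 falls in testis. With 2 libraries per group, many modest differences of effects can be missed. In the simulated data, where changed genes were drawn above a count floor, 33 of 67 changes of log2 size 0.5 were called. Of those of log2 size 1, 54 of 67 were called, and of those of log2 size 2, 66 of 66. A missing call is thus no sign of equal effects.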
